A study of Homo sapiens with 4 samples.

Results

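The genes described here were the receptors EGFR, ERBB2 and ERBB3 and the ligands AREG, EREG, TGFA, HBEGF and BTC, chosen by gene symbol as members of the EGF receptor family. All 8 were found among the 19974 rows of each library. HCT116 is an established human colorectal carcinoma cell line. One group of cells received a scramble siRNA (si-NC) and the other an siRNA against LINC00152 (si-152), each at 100 nM for 36 h, with 2 biological replicates per group. The study asked which genes and pathways of these cells respond when the long noncoding RNA LINC00152 is suppressed. The values were taken as FPKM, sequenced fragments corrected for transcript length and for library depth, so levels of different genes can be set side by side per length.

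The EGF receptor family passes growth signals from the cell surface to the MAPK and PI3K pathways. Ligands are made as membrane-bound precursors, are cut free by ADAM proteases, and bind receptors that then pair and phosphorylate each other. EGFR binds all of the ligands described here, ERBB2 has no known ligand and acts as the preferred partner, and ERBB3 binds neuregulins and signals through its partners because its own kinase is weak. AREG and EREG are made at high levels in many colorectal cancers, and AREG is a known target of YAP1. Bulk RNA cannot tell fewer cells that make a transcript from less of it per cell.

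The summed values differed between the libraries, from 424754 to 534311 FPKM, and 14589 to 14686 genes were above 0. How many reads lie behind the values is unknown. The lowest values did not step by a shared ratio between libraries, since the most frequent ratio (rounded to 2 decimals) to si-NC replicate 1 was held by 8 to 10 of 306 to 367 genes. All 5 epithelial markers were present, with CDH1 between 20.7 and 25.7 FPKM and EPCAM, KRT8, KRT18 and KRT19 at 190.5 FPKM or more. Of the markers of other cell types, DCN and PTPRC were listed at 0 in all libraries and COL3A1, PECAM1 and CDH5 stayed under 0.02 FPKM, while COL1A1 was at 7.02 to 7.98 FPKM. In a principal component analysis, component 1 (54.4% of the variance) set replicate 2 apart from replicate 1 in both groups, and component 2 (28.9%) set si-152 apart from si-NC. LINC00152 was not analysed here, so the suppression was not checked in these libraries.

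AREG, EREG and BTC lie in one region of chromosome 4 on GRCh38, the build named in the submitters' processing notes, and positions are those of GENCODE v29. EREG spans 74365143 to 74388751 and AREG 74445134 to 74455009, both on the plus strand, 56.4 kb apart. BTC spans 74744759 to 74794686 on the minus strand, 289.8 kb beyond AREG. A further ligand gene, EPGN, lies 49.8 kb before EREG, and no other protein-coding gene of the annotation falls wholly between EPGN and BTC. The other members are on separate chromosomes, with EGFR on chromosome 7 from 55019021 to 55211628, ERBB2 on 17 from 39687914 to 39730426, ERBB3 on 12 from 56076799 to 56103505, TGFA on 2 from 70447280 to 70554193 and HBEGF on 5 from 140332843 to 140346631.

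The sequences just before the starts of AREG and EREG are shown because these neighbours were the most abundant members. They come from RefSeq on GRCh38.p14, from chr4:74444986-74445135 for AREG and chr4:74364945-74365144 for EREG, on the plus strand, and end at the base before the start. Capitals mark TGACGTCA (the CRE, bound by CREB factors), CATTCC (the core of the TEAD site, through which YAP1 acts) and TATAAA (the TATA box).

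AREG: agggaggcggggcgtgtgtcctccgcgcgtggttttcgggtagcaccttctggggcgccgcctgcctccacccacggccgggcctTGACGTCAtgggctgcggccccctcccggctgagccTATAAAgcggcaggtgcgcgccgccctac

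EREG: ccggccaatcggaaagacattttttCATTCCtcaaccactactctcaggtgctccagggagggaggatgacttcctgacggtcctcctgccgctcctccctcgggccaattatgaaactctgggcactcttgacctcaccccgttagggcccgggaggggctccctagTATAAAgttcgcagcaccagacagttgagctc

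Both genes had TATAAA close to the start, beginning 29 bases before it in AREG and 32 bases before it in EREG. The CRE began 65 bases before the AREG start, and CATTCC began 175 bases before the EREG start. The 4 motifs searched on both strands were these 3 and TGANTCA (the AP-1 site), in windows from 250 bases before to 50 after a start, and none of the 4 overlapped another in the 2 stretches shown. Of 35116 such windows, 14.03% held CATTCC, 7.71% TGANTCA, 1.85% TGACGTCA and 11.5% TATAAA. The table held 9 windows for 7 of the 8 members, all but ERBB3. CATTCC was found in the EREG window and in 1 of the EGFR windows, TGANTCA in the same EGFR window and in that of ERBB2, TGACGTCA in AREG alone, and TATAAA in AREG, EREG and that EGFR window. That EGFR window, chr7:55109589-55109888, lies within the gene and not at its annotated start (55019021). No other EGFR window held any of the 4 motifs. A match of letters is a description and not a bound site.

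AREG and EREG were by far the most abundant members. In si-NC, AREG ranked 176 and 251 and EREG 230 and 456 among all rows of their libraries. AREG and EREG together made up 93.7% to 95.1% of the summed FPKM of the 5 ligands in every library. The ligand sum was 18.4 to 22.9 times the receptor sum. In si-NC the order of the group means was AREG, EREG, TGFA, ERBB2, HBEGF, ERBB3, BTC and EGFR, and the libraries of neighbours overlapped for TGFA and ERBB2 and for BTC and EGFR. In si-152 the mean of EREG was above that of AREG, and the libraries overlapped for these ligands, for ERBB3 and BTC, and for BTC and EGFR.

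**Figure D1:**
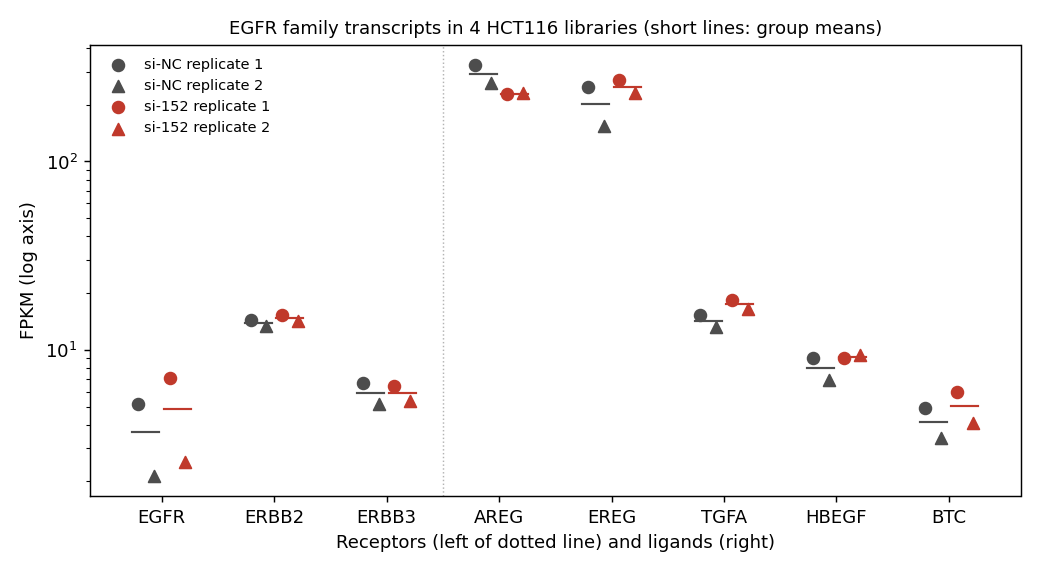
FPKM (log axis) of the 3 receptors and 5 ligands in each library, with circles for replicate 1, triangles for replicate 2, grey for si-NC, red for si-152 and short lines for group means (n = 2). AREG and EREG lie above 150 FPKM in all libraries and the other members under 20 FPKM, and EGFR is lower in both replicate 2 libraries.

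None of the 8 members passed the test between si-152 and si-NC. Differences were tested on log2(FPKM + 1) with limma over 11222 genes, a scale that understates the change of low genes, and p-values were adjusted over all of these genes. At an unadjusted p under 0.05, 0 of the 8 members were called, where 4.38% of all tested genes were, and 0 had an adjusted p under 0.05. The adjusted p was 1.00 by limma for each member. The groups did not overlap for 2 members, AREG (lower) and TGFA (higher), where 30.4% of all tested genes were separated in this way in either direction. Same-numbered libraries differed in the same direction in both pairs for 6 members, where 63% of all tested genes did. None of these counts is read as particular to the family. When the replicate number was added as a term, 3 of the 8 members, AREG, EREG and TGFA, had an unadjusted p under 0.05 by limma, where 16.9% of all tested genes did, and 0 had an adjusted p under 0.05.

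**Figure D2:**
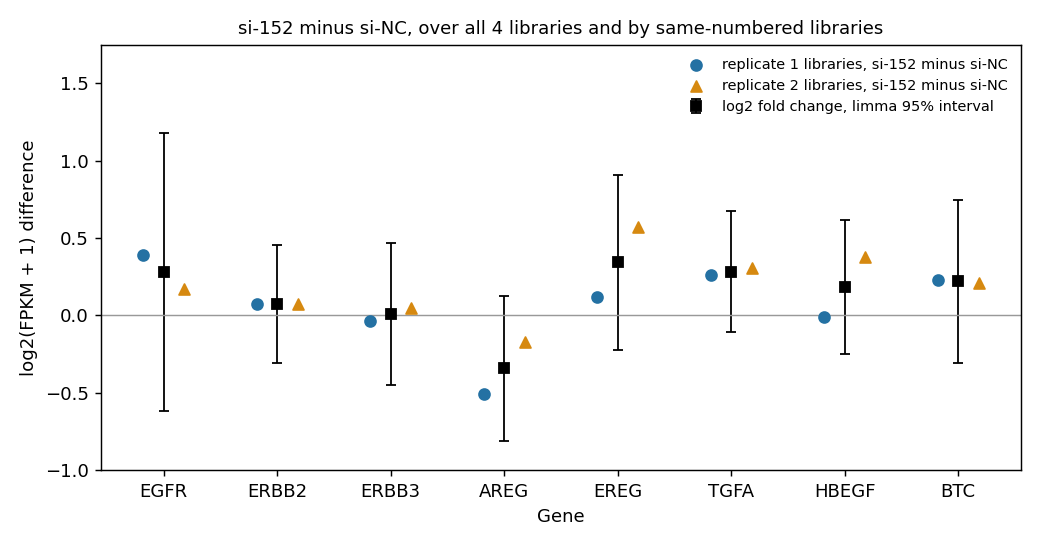
Difference in log2(FPKM + 1), si-152 minus si-NC, for each member, with black squares and bars for the log2 fold change and its 95% interval by limma, blue circles for the replicate 1 libraries and orange triangles for the replicate 2 libraries. All 8 intervals include 0, and AREG is the member that is lower in both pairs.

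EGFR, the receptor of all these ligands, was the least abundant member in the group means. It was at 5.18 and 2.15 FPKM with si-NC (3.66 ± 2.14, SD, n = 2) and at 7.11 and 2.54 FPKM with si-152 (4.83 ± 3.23, SD, n = 2). The groups overlapped, and the replicate 1 libraries were high in both groups. EGFR was 2.41 times higher in replicate 1 than in replicate 2 of si-NC and 2.80 times higher in si-152. Within same-numbered pairs it was 1.37 and 1.18 times as high in si-152 as in si-NC. The log2 fold change was 0.28 (standard error 0.40, 95% interval -0.62 to 1.18). It turned to -0.21 without si-NC replicate 2 and to -0.32 without si-152 replicate 1. It was 0.77 without si-NC replicate 1 and 0.88 without si-152 replicate 2.

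ERBB2, the partner without a ligand, was the most abundant receptor. It was at 14.5 and 13.4 FPKM with si-NC and at 15.3 and 14.1 FPKM with si-152, so the groups overlapped and no library stood out. Its log2 fold change was 0.07 (standard error 0.17, 95% interval -0.31 to 0.46), which leaves room for a change of either sign within that interval. The difference in pair 2 was 0.08 without scaling and -0.0035 with quantile normalization. ERBB2 made up 52.9% to 64.7% of the summed FPKM of the receptors, and the ERBB2 to EGFR ratio was 2.79 and 2.15 in the replicate 1 libraries of si-NC and si-152 and 6.23 and 5.57 in the replicate 2 libraries.

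ERBB3, which pairs with ERBB2, was at 6.63 and 5.14 FPKM with si-NC and at 6.46 and 5.35 FPKM with si-152. The groups overlapped almost fully, and replicate 1 was the higher in both. Its log2 fold change was 0.0078 (standard error 0.20, 95% interval -0.45 to 0.47). The sign turned with size factors (-0.0089), with quantile normalization (-0.029), without si-NC replicate 2 (-0.15) and without si-152 replicate 1 (-0.11), so no direction can be given for ERBB3.

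Amphiregulin (AREG), which binds EGFR alone, was the only one of the 5 ligands tested with a log2 fold change under 0. It was at 324.7 and 260.8 FPKM with si-NC (292.7 ± 45.2, SD, n = 2) and at 227.6 and 231.1 FPKM with si-152 (229.4 ± 2.45, SD, n = 2). Both si-152 libraries lay under both si-NC libraries, and the higher si-NC library was replicate 1. The level in si-152 was 0.783 of that in si-NC, 0.701 in pair 1 and 0.886 in pair 2. Its log2 fold change was -0.34 (standard error 0.21, 95% interval -0.81 to 0.13, unadjusted p = 0.134 by limma). It was -0.34 under the same fit with the replicate number as a term (unadjusted p = 0.0258 and adjusted p = 0.229 by limma), and -0.18 without si-NC replicate 1. CTGF and CYR61, which encode secreted matricellular proteins, are known targets of YAP1 like AREG. CTGF was at 2.41 and 1.57 FPKM with si-NC and 1.91 and 1.38 FPKM with si-152, and CYR61 was at 7.10 and 5.47 FPKM and at 6.15 and 6.83 FPKM. Both overlapped between the groups, with log2 fold changes of -0.17 (standard error 0.23) and 0.05 (standard error 0.20), but CTGF was at 0.035 without si-NC replicate 1 and CYR61 at -0.11 without si-NC replicate 2, -0.019 without si-152 replicate 2 and -0.00076 with quantile normalization.

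Epiregulin (EREG), a ligand of EGFR and ERBB4, was at 248.6 and 154.5 FPKM with si-NC (201.6 ± 66.5, SD, n = 2) and at 270.1 and 229.9 FPKM with si-152 (249.96 ± 28.4, SD, n = 2). Its si-NC replicate 2 was low against the other 3 libraries, and si-152 replicate 2 was under si-NC replicate 1, so the groups overlapped. The log2 fold change was 0.34 (standard error 0.25, 95% interval -0.22 to 0.91, unadjusted p = 0.203 by limma), with differences of 0.12 in pair 1 and 0.57 in pair 2. Without si-NC replicate 2 the value was 0.0031, and without si-NC replicate 1 it was 0.69. With the replicate number as a term the unadjusted p was 0.0333 and the adjusted p 0.253 by limma.

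Transforming growth factor alpha (TGFA), which binds EGFR alone, was at 15.3 and 13.2 FPKM with si-NC (14.2 ± 1.498, SD, n = 2) and at 18.5 and 16.5 FPKM with si-152 (17.5 ± 1.36, SD, n = 2). Both si-152 libraries were above both si-NC libraries. It was 1.21 and 1.26 times as high in si-152 in pairs 1 and 2. The log2 fold change was 0.28 (standard error 0.18, 95% interval -0.11 to 0.68, unadjusted p = 0.137 by limma), and with the replicate number as a term the unadjusted p was 0.0291 and the adjusted p 0.242 by limma. Leaving out any single library gave 0.18 to 0.38, with the lowest value without si-NC replicate 2.

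Heparin-binding EGF-like growth factor (HBEGF), a ligand of EGFR and ERBB4, was at 9.08 and 6.96 FPKM with si-NC and at 9.02 and 9.34 FPKM with si-152. Only si-NC replicate 2 stood apart, below the other 3 libraries. The log2 fold change was 0.18 (standard error 0.19, 95% interval -0.25 to 0.62) and 0.014 without si-NC replicate 2. In pair 1 the unscaled difference was -0.0082, against 0.026 after size factors and 0.0045 after quantile normalization.

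Betacellulin (BTC), which also binds EGFR and ERBB4, was at 4.91 and 3.40 FPKM with si-NC and at 5.94 and 4.08 FPKM with si-152. Replicate 1 was higher in both groups, by 1.45 times in each, and the groups overlapped. It was 1.21 and 1.202 times as high in si-152 within the pairs. The log2 fold change was 0.22 (standard error 0.24, 95% interval -0.31 to 0.75), and it was 0.0075 without si-NC replicate 2 and -0.0040 without si-152 replicate 1.

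Averaged over the groups, the replicates differed by more than the siRNA groups for 5 of the 8 members, EGFR, ERBB2, ERBB3, EREG and BTC. This was so for 63.1% of all tested genes. Replicate 2 minus replicate 1 was -1.09 for EGFR on the log2(FPKM + 1) scale, averaged over the groups, against -0.06 for the median of all tested genes. EREG had -0.46 and BTC -0.44, while AREG had -0.15, TGFA -0.18 and HBEGF -0.15. For AREG and HBEGF the groups differed in sign, so the average understates the replicate difference in si-NC. AREG had -0.32 in si-NC and 0.022 in si-152, and HBEGF had -0.34 and 0.045. The si-NC difference of HBEGF was larger in size than its siRNA difference of 0.18. What the replicate numbers stand for beyond separate cultures is not given in the labels, and the part of a shared preparation in these differences was not tested.

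**Figure D3:**
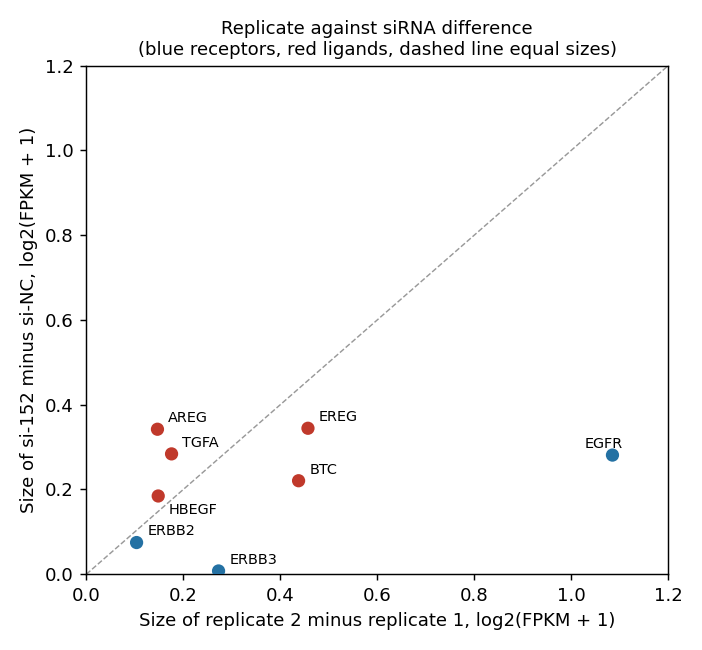
Size of the replicate difference (x axis) against the size of the siRNA difference (y axis), both in log2(FPKM + 1), with receptors in blue, ligands in red and a dashed line where the sizes are equal. EGFR lies farthest to the right at 1.09 against 0.28, and AREG, TGFA and HBEGF lie above the line. The replicate difference is averaged over the groups, so opposite signs partly cancel for AREG and HBEGF.

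The remaining receptor and ligands of the family were near or at 0, and 0 of these 7 genes reached the level needed for the test. ERBB4 was between 0.0043 and 0.022 FPKM, the neuregulins NRG1 and NRG4 between 0.066 and 0.213 FPKM, and NRG2 between 0.204 and 0.437 FPKM. NRG3 was listed at 0 in all 4 libraries. EGF was at 0.308 and 0.214 FPKM with si-NC and 0.189 and 0.197 FPKM with si-152. EPGN, next to EREG on chromosome 4, was at 0.069 and 0.042 FPKM with si-NC and 0.110 and 0.148 FPKM with si-152, against more than 150 FPKM for EREG and AREG. The cells thus held transcripts of EGFR, ERBB2 and ERBB3 and of EGFR ligands, with little or none for ERBB4 and the neuregulins.

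Of the 10 sheddases and iRhom proteins, which free the ligands from the membrane, 8 were tested, and 1 had an unadjusted p under 0.05 by limma, where 4.38% of all tested genes did. This was ADAM15, a membrane protease, at 35.5 and 39.6 FPKM with si-NC and 51.0 and 58.3 FPKM with si-152. Both si-152 libraries lay above both si-NC libraries, with a log2 fold change of 0.53 (standard error 0.17, unadjusted p = 0.0116 and adjusted p = 0.881 by limma). Without si-NC replicate 1 the log2 fold change was 0.45, and without si-152 replicate 2 it was 0.43. With the replicate number as a term its adjusted p was 0.065 by limma. ADAM17, the main sheddase of AREG, EREG, TGFA and HBEGF, was at 18.9 and 10.1 FPKM with si-NC and 19.0 and 11.96 FPKM with si-152, and ADAM10, the main sheddase of BTC and EGF, at 22.9 and 17.0 FPKM and at 23.3 and 17.5 FPKM. Their log2 fold changes were 0.12 (standard error 0.29) and 0.03 (standard error 0.21), and both turned below 0 without si-NC replicate 2 or si-152 replicate 1. ADAM9 and the iRhom partner FRMD8 had log2 fold changes of 0.21 and -0.06. Over the list, 7 genes were higher and 1 lower, with a median of 0.20, against a median of 0.02 over all tested genes.

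Among 14 tested adaptors and first effectors, 1 had an unadjusted p under 0.05, where 4.38% of all tested genes did. PTPN11, which encodes the phosphatase SHP2 that carries signals from the receptors to the MAPK cascade, was at 35.5 and 27.4 FPKM with si-NC and 46.9 and 38.4 FPKM with si-152. Both si-152 libraries were above both si-NC libraries, and the log2 fold change was 0.43 (standard error 0.19, unadjusted p = 0.0482 and adjusted p = 1.00 by limma). The fold stayed between 0.41 and 0.46 on the log2 scale while the unadjusted p by limma was 0.0514 with size factors, 0.0562 with quantile normalization, 0.0658 without a mean-variance trend and 0.0718 with all genes above 0 in the fit. The log2 fold change of PTPN11 was 0.25 without si-NC replicate 2 and 0.29 without si-152 replicate 1. The adaptors GRB2 and SHC1 were among the most abundant of the list, at 55.4 to 63.4 and 52.8 to 69.0 FPKM, with log2 fold changes of -0.04 (0.0038 with quantile normalization) and 0.15 (0.00012 without si-152 replicate 1 and 0.30 without si-152 replicate 2). GRB7, an adaptor encoded beside ERBB2, had 0.16, with 0.016 without si-152 replicate 2 and 0.31 without si-152 replicate 1, and CRKL had 0.03. The list had 11 genes higher and 3 lower, with a median of 0.20.

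The negative regulators held the most abundant gene of the pathway, ERRFI1, whose product MIG6 binds and blocks the EGFR kinase. ERRFI1 was at 528.4 and 400.5 FPKM with si-NC and at 425.2 and 308.9 FPKM with si-152. It was lower in si-152 in both pairs, but the groups overlapped, with si-152 replicate 1 above si-NC replicate 2. Its log2 fold change was -0.34 (standard error 0.26, unadjusted p = 0.213 by limma), and with the replicate number as a term the unadjusted p was 0.0180 and the adjusted p 0.202 by limma. It was -0.11 without si-152 replicate 2, -0.14 without si-NC replicate 1, -0.54 without si-NC replicate 2 and -0.57 without si-152 replicate 1. STUB1, SH3KBP1 and PTPN12 had -0.18, 0.13 and 0.09. Of the 14 tested genes of the list, 9 were higher and 5 lower with a median of 0.07, and 0 had an unadjusted p under 0.05 by limma. The endocytic sorting genes, which carry bound receptors to recycling or breakdown, had 9 higher and 5 lower of 14 tested, with a median of 0.02 and likewise 0 calls by limma. AP2M1, RAB7A and CLTC had log2 fold changes of 0.0097, -0.17 and 0.015, and HGS, at 58.5 and 52.9 FPKM with si-NC and 67.3 and 72.4 FPKM with si-152, had 0.32 (standard error 0.17, unadjusted p = 0.0835 by limma). The groups did not overlap for HGS, and its unadjusted p by limma was 0.0479 with all genes above 0 in the fit and 0.0215 with the replicate number as a term (adjusted p = 0.217). Over the 5 lists, 50 of 62 genes were tested, 36 were higher and 14 lower, 2 had an unadjusted p under 0.05, both higher, and 0 had an adjusted p under 0.05 by limma. Over all tested genes 54.2% were higher and 4.38% had an unadjusted p under 0.05, so the share called in the lists was near the background.

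**Figure D4:**
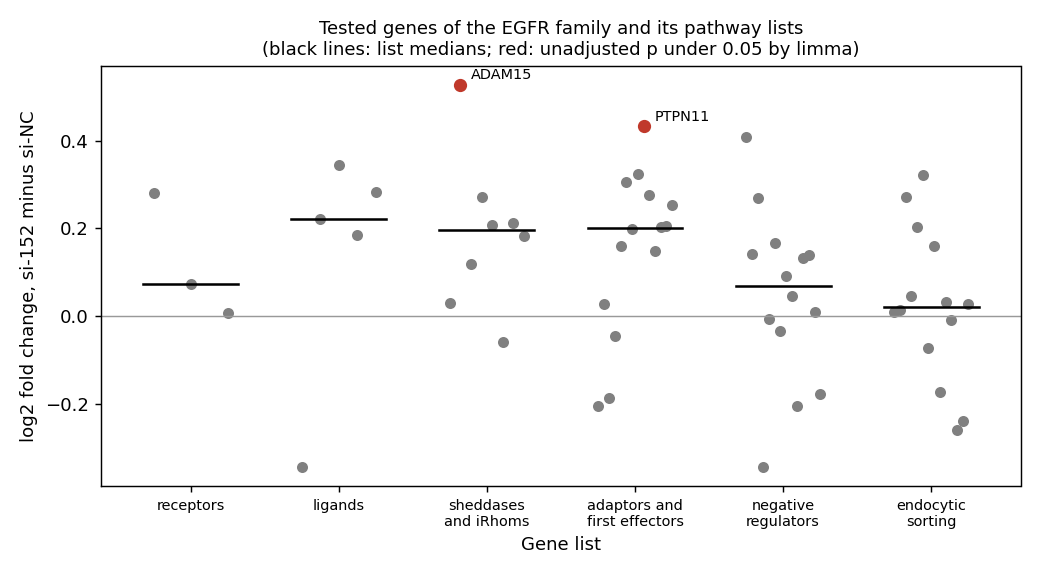
Log2 fold change, si-152 minus si-NC, of each tested gene of the receptors, the ligands and 4 pathway lists, with black lines for list medians and red points for an unadjusted p under 0.05 by limma. ADAM15 and PTPN11 are the 2 red points, and the medians lie between 0.02 and 0.22.

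The study also asked whether LINC00152 binds microRNAs, among them miR-185-3p and miR-4722-5p, and the mature sequences of these are shown because their seeds decide which transcripts they can pair with. They are from RefSeq, and capitals mark the seed, bases 2 to 8. miR-632 is also named by the study. Binding to LINC00152 was reported there for miR-185-3p and miR-632, and miR-4722-5p was not followed further. The sequence of miR-632 was not among the sources used here, so its sites were not searched.

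hsa-miR-185-3p: aGGGGCUGgcuuuccucugguc

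hsa-miR-4722-5p: gGCAGGAGggcugugccagguug

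The complement of the miR-185-3p seed, CAGCCCC, was in the longest annotated 3′-UTR of 2 of the 8 members, EGFR and ERBB3, and in 21.8% of the 10757 tested genes with a 3′-UTR in GENCODE v29. That of the miR-4722-5p seed, CTCCTGC, was in ERBB3, EREG and HBEGF, and in 26.5% of the tested genes. Each site lay in the last exon. The miR-185-3p sites, in capitals within their flanks, are given below for the 2 receptors, on chromosome 7 from 55207777 to 55207783 and on chromosome 12 from 56102150 to 56102156, both on the plus strand.

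EGFR: taaaagttgCAGCCCCcagggggat

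ERBB3: cccaggtccCAGCCCCttttcccca

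The members with a miR-185-3p site had log2 fold changes of 0.28 and 0.0078, and the members without it ranged from -0.34 to 0.34. A match of 7 bases is a description, and whether these sites are used in HCT116 cells was not tested.

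The genes whose values followed those of EGFR and AREG most closely over the 4 libraries were found by the root mean square difference of log2(FPKM + 1), each gene centred on its own mean. For EGFR they were ZBED6 (0.080), ERN1 (0.095) and ADAM9 (0.10), all lower in both replicate 2 libraries. For AREG they were SPRED1 (0.0036), DTD2 (0.013) and TRIQK (0.021). SPRED1 was at 7.28 and 5.70 FPKM with si-NC and at 4.82 and 4.90 FPKM with si-152. Such likeness rests on 4 libraries only. Many genes shared it with AREG, since 371 tested genes lay within 0.1 of it, while 2 lay within 0.1 of EGFR.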

How the data were processed

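RNA of 4 HCT116 libraries was sequenced. Each library has a table of its own, with gene symbols and their values. The deposited values carry no unit and were taken as FPKM from their decimals and differing sums. The submitters' processing notes name Trimmomatic, TopHat, HISAT2, HTSeq, DESeq and GRCh38, without roles, and the annotation is not given in the sources used here. Groups and replicate numbers came from the sample titles. Among the 19974 rows, 28 symbols have the form of a date, and 2 symbols occur in an earlier row too. The study tested read counts with DESeq, which were not used here. Instead, log2(FPKM + 1) was fitted by limma 3.58.1 (R 4.3.3) for genes that reached 1 FPKM in 2 or more libraries, using a mean-variance trend, no scaling and Benjamini-Hochberg adjustment. The test was checked on simulated data. Members and lists were chosen with earlier results of these data known. The text names the members, the other receptors and ligands, listed genes with an unadjusted p under 0.05 and up to 4 of the most abundant others per list. CTGF and CYR61 are named beside AREG. Alternatives were other scalings, filters and a pseudocount of 0.1, no trend, the replicate number as a term and each library left out. Sequences and motifs were read with Python 3.11.15. p-values rest on the spread between 2 cultures per group, moderated toward a trend over all tested genes. With the replicate number as a term, the difference between replicates is taken out of that spread.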

Additional observations from a re-analysis of the deposited data

How the results depend on the processing

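The log2 fold changes of the 8 members were recomputed under 11 alternatives, which gave 88 values, and the smallest adjusted p among them was 0.229. Of these values, 75 kept their direction and their side of an unadjusted p of 0.05, 7 turned sign and 6 passed that p. ERBB3 turned to -0.0089 with size factors and to -0.029 with quantile normalization. With the replicate block, AREG (-0.34), EREG (0.34) and TGFA (0.28) passed an unadjusted p of 0.05 by limma, so 3 members did. Of the 50 tested pathway genes, 9 higher and 1 lower passed it, where 16.9% of all tested genes did. With the block, 0 pathway genes had an adjusted p under 0.05 by limma. With each library left out in turn, EGFR ranged from -0.32 to 0.88, ERBB3 from -0.15 to 0.16, EREG from 0.0031 to 0.69 and BTC from -0.0040 to 0.45. A group left with 1 library has no spread of its own. The standard errors of these fits came largely from the trend over all genes. Passes and gene counts from these fits are therefore given as a description only and are not read as calls. Of the 6 member values that passed an unadjusted p of 0.05 by limma, 3 were with the replicate block. The others came from fits with a library left out. Among the other named genes, leaving out libraries turned the sign of the following, whose values ran for CTGF from -0.37 to 0.035, CYR61 from -0.11 to 0.21, ADAM9 from -0.31 to 0.72, ADAM10 from -0.17 to 0.23, ADAM17 from -0.31 to 0.54, FRMD8 from -0.16 to 0.043 and GRB2 from -0.14 to 0.051. They ran for CRKL from -0.24 to 0.29, STUB1 from -0.52 to 0.16, SH3KBP1 from -0.017 to 0.28, PTPN12 from -0.14 to 0.32, AP2M1 from -0.052 to 0.072 and CLTC from -0.14 to 0.17. CYR61 turned to -0.00076 and GRB2 to 0.0038 with quantile normalization, and AP2M1 to -0.010 and CLTC to -0.0054 with size factors. Size factors, quantile normalization and the fit without a trend each left 1 higher pathway gene. Across genes, libraries with the same number deviated together from the group means (correlation 0.52), but the labels do not say that a number marks a shared preparation, so a pairing is not established. Over all genes, 492 had an unadjusted p under 0.05, against 796 with genes above 0 in any library, 1893 with the replicate block and 301 to 714 with a library left out. At an adjusted p under 0.05 there were 2, against 1 with a pseudocount of 0.1, with the wider filter, with size factors, with quantile normalization and without a trend, 0 with 1 FPKM required in every library, 78 with the block and 39 to 71 with a library left out. The causes of these shifts were not tested. The unknown depth and 2 libraries per group limit what can be detected, and the intervals of the members span up to 1.80 on the log2 scale.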

Other observations

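The ratio of AREG to EREG, chosen after its values were seen, was 1.31 and 1.69 in si-NC and 0.843 and 1.01 in si-152. AREG made up 53.9% and 59.4% of the summed FPKM of the 5 ligands in si-NC and 42.9% and 47.1% in si-152, while EREG made up 41.3% and 35.2% in si-NC and 50.8% and 46.8% in si-152. The groups did not overlap in either share, where 30.4% of all tested genes were separated in this way by their own level. AREG and EREG made up 93.7% to 95.1% of the ligand sum, so the ratio and the shares are nearly the same contrast. EREG by its own level overlapped between the groups. How many other gene pairs have ratios that separate the groups was not counted. AREG had the lower share with si-152 in both same-numbered pairs, and a scaling by 1 factor per library leaves these shares as they are. A two-sided exact permutation test of 2 against 2 libraries cannot give a p under 0.333, and no other test of the ratio was run.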
